A study of Mus musculus with 24 samples.

Results

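The open chromatin described here lies in gene deserts, the long stretches of the mouse genome without protein-coding genes. The peaks of 24 ATAC-seq libraries were joined into regions wherever they shared 1 bp or more, and a region was kept if at least 2 libraries had a peak in it. Of the 80598 regions, 9589 (11.9%) had a midpoint more than 50 kb from every protein-coding gene body of the RefSeq annotation of mm10, and these are called gene-desert regions. The other 71009 regions lay inside a gene or within 50 kb of one. The choice rests on position alone, so width, sharing between libraries and response were free to vary.

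Accessible sites far from genes are mostly distal regulatory elements, such as enhancers, which act on promoters over long distances through chromatin looping, and insulators bound by CTCF. In macrophages the lineage factor PU.1 opens many enhancers together with C/EBP and AP-1 factors. Signals such as lipopolysaccharide (LPS) and interferon gamma (IFNγ) add binding of NF-κB, IRF and STAT factors, and some sites become accessible only then. Deserts also hold genes of long non-coding RNAs and microRNAs, including microRNAs known as regulators of inflammation.

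The libraries came from bone marrow-derived macrophages of male C57Bl/6 mice, cultured cells that are grown out of marrow progenitors. Diabetic mice had received streptozotocin (STZ), a toxin that kills insulin-producing beta cells, and control mice were not diabetic. In both phenotypes one portion of the cells was left unstimulated and the other received 100 ng/mL LPS with 10 ng/mL IFNγ, giving 4 groups of 6 libraries. No label gives the age of the mice, their blood glucose or the glucose of the culture medium. How long the cells were stimulated is not certain, since the only duration given is for IL-1β, which appears in no other label. Each phenotype has samples of 6 mice per the series description, and each sample was divided between an unstimulated and a stimulated library, so the states share mice. No label says which libraries come from the same mouse. The tests between states and those over all 24 libraries treat them as independent.

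A region was scored as found in a library where that library's own peak list had a peak in it, at the calling limit of a q-value of about 0.05. A region that was not found lay below that limit, which does not show closed chromatin. Lists held between 41385 and 61861 peaks, and the read depth behind them is not given in the sources used here. Of 8 macrophage marker genes, 5 had a peak summit within 1 kb of a gene end in all 24 libraries (Adgre1, Itgam, Cd68, Mertk and Fcgr1) and the other 3 (Csf1r, Lyz2 and Spi1) in 6, 6 and 9 of 12 stimulated and all 12 unstimulated libraries. Of the neutrophil genes, Mpo, Elane, Ly6g and Ngp had none in any library, and neither did Cd3e, Cd8a, Lck and Ncr1 of T and NK cells, Pax5 and Ms4a1 of B cells, or Hba-a1, Hbb-bs, Klf1 and Slc4a1 of erythroid cells. In contrast, Camp of neutrophils and Cd3d of T cells had one in all 24 libraries, and Ebf1 (B cell) and Col1a1 (stromal) in 21 and 19. Replicate 6 of stimulated control macrophages stood apart: it had the longest list of its group (54960 peaks) and the lowest share of peaks in gene deserts of all libraries (9.02%). Replicate 5 of stimulated diabetic macrophages was also low for its group, at 9.8%. Results that rest on these libraries are given with and without them.

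No genome sequence was used, so the gene-desert regions themselves cannot be shown as sequence. What can be shown are RefSeq promoter windows (assembly GRCm38.p6, 250 bases before to 50 after a gene's start) that lie under them. Of the 9589 regions, 216 (2.25%) overlapped 247 such windows of 220 genes, all of long non-coding RNAs. The 6 windows below stand for the kinds of response described further on: 2 under regions found in all 24 libraries, 2 under gained and 2 under lost regions, chosen after their values were seen. Capitals mark matches, on either strand, to the motifs of CTCF (CCANNAGNNGGC), PU.1 (GAGGAAGT), AP-1 (TGANTCA), C/EBP (TTGCNNAA), IRF (GAAANNGAAA) and NF-κB (GGGANTTTCC), none of which contains another.
Ptgs2os2 promoter, chr1:150164899-150165198, minus strand: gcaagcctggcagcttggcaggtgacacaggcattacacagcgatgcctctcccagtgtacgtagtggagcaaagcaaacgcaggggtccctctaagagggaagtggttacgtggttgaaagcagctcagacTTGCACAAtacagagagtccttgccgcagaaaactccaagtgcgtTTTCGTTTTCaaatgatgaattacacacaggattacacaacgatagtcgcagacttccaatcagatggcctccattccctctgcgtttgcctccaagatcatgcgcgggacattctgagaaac
4930471E19Rik promoter, chr10:120636058-120636357, minus strand: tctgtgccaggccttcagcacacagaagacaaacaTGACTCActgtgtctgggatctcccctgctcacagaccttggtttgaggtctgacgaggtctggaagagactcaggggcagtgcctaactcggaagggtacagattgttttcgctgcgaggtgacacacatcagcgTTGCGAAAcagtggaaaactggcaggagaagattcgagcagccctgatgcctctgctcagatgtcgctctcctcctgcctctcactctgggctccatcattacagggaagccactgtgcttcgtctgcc
1700067G17Rik promoter, chr1:89015863-89016162, plus strand: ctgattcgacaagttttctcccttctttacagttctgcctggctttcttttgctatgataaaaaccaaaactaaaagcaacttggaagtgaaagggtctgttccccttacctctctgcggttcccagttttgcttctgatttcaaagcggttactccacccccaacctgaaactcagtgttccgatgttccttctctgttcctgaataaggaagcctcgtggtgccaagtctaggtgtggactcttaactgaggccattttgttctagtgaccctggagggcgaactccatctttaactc
Gm52636 promoter, chr3:81629375-81629674, plus strand: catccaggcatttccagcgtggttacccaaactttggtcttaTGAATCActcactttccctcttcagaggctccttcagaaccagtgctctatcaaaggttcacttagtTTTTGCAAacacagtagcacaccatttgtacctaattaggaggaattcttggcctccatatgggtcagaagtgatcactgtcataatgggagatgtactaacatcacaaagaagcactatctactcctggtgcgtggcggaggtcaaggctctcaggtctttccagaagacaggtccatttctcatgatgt
1110002O04Rik promoter, chr1:35869698-35869997, plus strand: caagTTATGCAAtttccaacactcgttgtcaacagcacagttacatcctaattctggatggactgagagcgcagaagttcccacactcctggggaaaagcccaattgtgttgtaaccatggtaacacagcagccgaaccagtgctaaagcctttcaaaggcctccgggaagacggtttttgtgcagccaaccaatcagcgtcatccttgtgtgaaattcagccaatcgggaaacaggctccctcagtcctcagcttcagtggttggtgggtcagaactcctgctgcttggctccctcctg
Gm31718 promoter, chr8:126853199-126853498, minus strand: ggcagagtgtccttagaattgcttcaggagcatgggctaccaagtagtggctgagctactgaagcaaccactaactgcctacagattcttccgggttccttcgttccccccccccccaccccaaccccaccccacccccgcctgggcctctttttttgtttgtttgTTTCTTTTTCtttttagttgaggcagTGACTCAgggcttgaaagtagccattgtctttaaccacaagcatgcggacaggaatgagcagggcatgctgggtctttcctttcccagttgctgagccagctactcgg
The first of these windows belongs to Ptgs2os2, a non-coding neighbour of the cyclooxygenase 2 gene Ptgs2, and lies wholly inside the strongest gene-desert region of the data. It holds a C/EBP match and an IRF match. The windows of 4930471E19Rik, between the chromatin protein gene Hmga2 and Msrb3, and of Gm52636 each hold an AP-1 and a C/EBP match. That of 1110002O04Rik holds a C/EBP match, that of Gm31718 an AP-1 and an IRF match, and that of 1700067G17Rik no match to the 6 motifs. Over the 247 windows, 17.4% held an AP-1 match, against 7.81% of all 32851 windows of the table and 9.31% of the 11588 windows of long non-coding RNA genes. A PU.1 match was in 9.72%, against 3.2% and 3.33%, and a C/EBP match in 17.4%, against 10.8% and 12%. For IRF the shares were 4.86%, 3.44% and 3.61%, for CTCF 4.05%, 2.43% and 2.58%, and for NF-κB 0.81%, 0.411% and 0.388%. These shares are descriptions without a test, and a match to letters is not a bound site. The 247 windows all lie under a gene-desert region, whereas both comparison sets include windows whether or not a region lies over them. The shares therefore do not separate deserts from open regions elsewhere. GC content was 49.8% in the 247 windows and 49.3% in those of all long non-coding RNA genes.

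Gene deserts also held 175 of 1228 microRNA genes, and 96 of them had a gene-desert region within 50 kb. The mature microRNAs below belong to genes with a gained gene-desert region in the vicinity, chosen after their values were seen. Mir146, Mir155 and Mirlet7c-2 themselves lie within 50 kb of a coding gene and are not among the 96. In each sequence, the seed (bases 2 to 8, which pairs with target messages) is in capitals.
mmu-miR-146a-5p, chr11:43374435-43374456, minus strand: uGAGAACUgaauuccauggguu
mmu-miR-155-5p, chr16:84714143-84714165, plus strand: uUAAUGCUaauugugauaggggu
mmu-miR-125b-5p, chr9:41581940-41581961, plus strand: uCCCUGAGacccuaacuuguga
mmu-miR-29b-3p, chr6:31063025-31063047, minus strand: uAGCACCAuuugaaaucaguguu
mmu-let-7c-5p, chr15:85706616-85706637, plus strand: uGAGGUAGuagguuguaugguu
No pair of these 5 seeds is the same. miR-146a is a known brake on Toll-like receptor signalling, miR-155 a known promoter of inflammatory activation, and miR-125b, miR-29b and let-7c belong to families with many described targets in blood cells.

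Gene-desert regions were narrow. Their median width was 396 bp (quartiles 300 and 531 bp), against 420 bp (309 and 621 bp) for the other regions. Only 171 (1.78%) were wider than 1000 bp, against 7.24% of the others. The gap lay in the widely shared regions: among regions found in all 24 libraries the median was 612 bp in deserts and 745 bp elsewhere, with 7.15% and 23.4% wider than 1000 bp, whereas the medians were 406 and 405 bp among regions found in 6 to 23 libraries and 261 and 260 bp among those found in 2 to 5. Within each library, the median peak width in gene-desert regions was below that of the other peaks, with a mean difference of −23.8 bp and a negative difference in 24 of 24 libraries. A sign-flip permutation test over the libraries gave p = 2e-05, the smallest that 100000 resamples can give. The median width of desert peaks was 280 bp in stimulated and 282 bp in unstimulated libraries (permutation p = 0.54). The gap to other peaks was wider after stimulation, −26.8 bp against −20.8 bp (permutation p = 0.00428), and this difference was −9.58 bp in control (exact permutation p = 0.00216, adjusted p = 0.00866) and −2.25 bp in diabetic macrophages (exact permutation p = 0.481). Without replicate 6 of stimulated control the control difference was −8.22 bp (exact permutation p = 0.00433). With lists cut to equal length the difference was −4.21 bp pooled and −6 bp in control and missed the threshold (permutation p = 0.0766 and exact permutation p = 0.19).

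The widest gene-desert regions were found in every library. The first spanned 2913 bp (chr17:39843359-39846271) beside Rn18s-rs5, an 18S ribosomal RNA related sequence, with a low deposited fold enrichment of 3.19 to 3.74. The next, of 2368 bp (chr14:19417368-19419735), was likewise low at 4 to 4.85, with the pseudogene Gm9637 as its nearest non-coding gene at 13.5 kb. Another, of 2276 bp (chr14:115040301-115042576), lay 2.23 kb from Mir17, the first gene of the miR-17-92 cluster, which promotes proliferation, and 50.8 kb from the proteoglycan gene Gpc5. Its fold was 4.76 to 8.34. The other 2 were 1938 bp wide between the transcription factor gene Bbx and Ccdc54, and 1927 bp wide between Gm4832 and the forkhead gene Foxn2. How reads that align to several places were treated is not given in the sources used here, which bears on the ribosomal sequence.

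Sharing between libraries was lower in the deserts. All 24 libraries had a peak in 2057 gene-desert regions (21.5%), against 29.2% of the others, and only 2 libraries had one in 10.4% against 8.94%. The median number of libraries with a peak was 13 for gene-desert regions and 16 for the others. Per library, the share of gene-desert regions found differed from that of other regions by −5.51 percentage points on average and was lower in 24 of 24 libraries (sign-flip permutation p = 2e-05, the smallest possible). Replicate 6 of stimulated control macrophages was the extreme at −15 points, and the other libraries lay between −8.34 and −3.28. Peaks in gene-desert regions were also weaker. Ranked by −log10 q among a library's peaks in kept regions, their median differed by −4.87 percentile points on average from that of other peaks. It was lower in 24 of 24 libraries (sign-flip permutation p = 2e-05), and its part in the lower sharing was not tested. The libraries of a state resembled each other more than those of different states: the median share of found gene-desert regions that a pair of libraries had in common (Jaccard index) was 67.9% within a group, 66.8% between phenotypes and 56.6% between states. For the other regions the values were 72.7%, 71.8% and 64.2%. Detection only in stimulated libraries was seen for 870 gene-desert regions (9.07%, against 7.66% of the others) and only in unstimulated ones for 1172 (12.2%, against 9.14%).

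**Figure D1:**
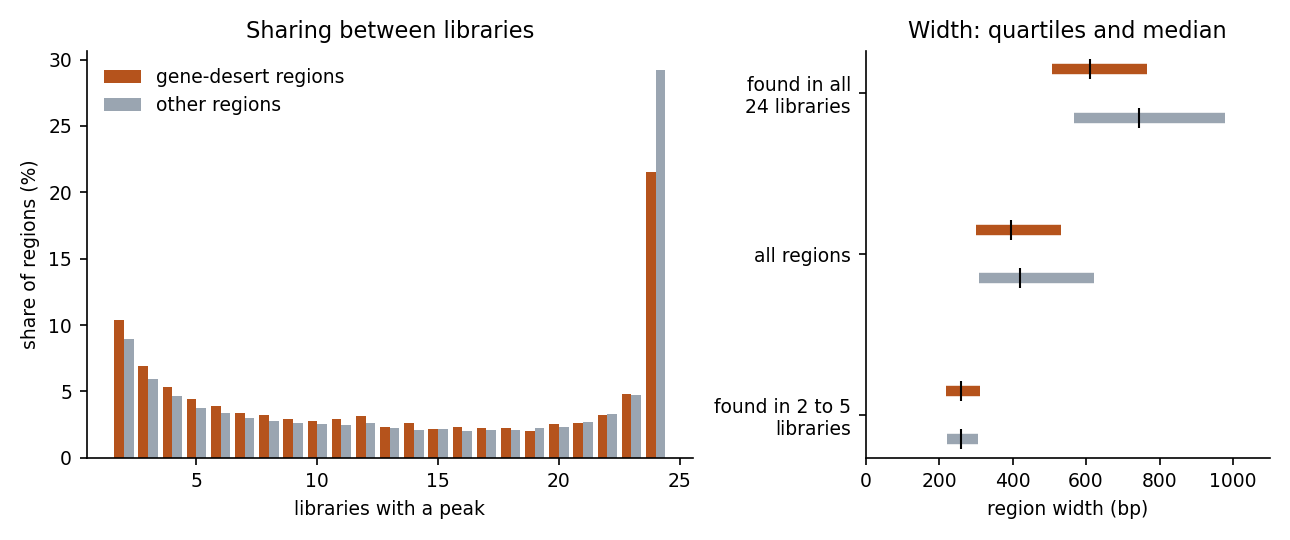
Left, share of gene-desert regions and of other regions (%) by the number of libraries with a peak; right, region width (bp), with bars from the lower to the upper quartile and a tick at the median. Gene-desert regions reach 21.5% at 24 libraries and the others 29.2%, and the medians are 612 and 745 bp among regions found in all libraries but 261 and 260 bp among those found in 2 to 5.

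The strongest regions found in all 24 libraries, ranked by the authors' −log10 q-value of their peaks, included 3 on chromosome 13. The first lay 56.8 kb from Ptgs2 (chr1:150164639-150165473), over the Ptgs2os2 promoter shown above, with a deposited fold of 11.6 to 19.4 and a median of 16.1. The second lay between the calcium channel gene Cacna2d1 and the hepatocyte growth factor gene Hgf (chr5:16469652-16470370, fold 13.4 to 18.5). The highest median folds of the 10 were 19.1, between Depdc1b and the phosphodiesterase gene Pde4d (chr13:108552951-108553539), and 19, between the ethanolamine kinase gene Etnk1 and Sox5 (chr6:143348858-143349506). Others lay 61.1 kb from the Wnt inhibitor gene Axin2, 58.8 kb from Nfe2l2, which encodes the antioxidant regulator NRF2, and 264 kb from Ifng, the gene of interferon gamma itself, with Dyrk2 on its other side. The remaining 3 lay between Tmem167 and Atp6ap1l, between Oxgr1 and the splicing regulator gene Mbnl2, and between Kif2a and Zswim6. Their widths ran from 505 to 954 bp.

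Gene-desert regions were spread unevenly over the deserts. When midpoints at most 50 kb apart were joined, they formed 2528 clusters, of which 1080 were single regions, and 228 clusters of at least 10 held 41.1% of all gene-desert regions. The median distance to the nearest other gene-desert region was 5.76 kb (quartiles 1.95 and 16 kb). To the nearest region of any kind it was 5.65 kb for gene-desert regions and 4.35 kb for the other regions, so close spacing was not particular to deserts. Deserts cover 1018 Mb (37.7%) of the sequence of chromosomes 1 to 19, X and Y, and held 9.42 regions per Mb, against 42.1 elsewhere. By chromosome the density was highest on 10 (19.5 per Mb), 13 (17.7) and 2 (15.1) and lowest on X (3.09) and Y (0.046). Outside the deserts X and Y were also the lowest, at 18.5 and 0.313 other regions per Mb. There, chromosomes 10, 13 and 2 had 45.7, 46.1 and 44.9 per Mb. Of 2983 deserts, 1513 had no gene-desert region, and 289 deserts with at least 10 held 60.1% of them in 17.9% of the desert sequence.

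The longest deserts were not the fullest. Deserts over 1 Mb made up 46.6% of desert sequence and held 19.6% of the regions, and 71 of these 260 had none. The longest, 4442 kb between the protocadherin genes Pcdh20 and Pcdh9 on chromosome 14, had 1. The fullest was the 3597 kb between Zeb2, a transcriptional repressor of myeloid cells, and the activin receptor gene Acvr2a on chromosome 2, with 77. Next came the 1686 kb between Myc, the growth regulator, and Gsdmc on chromosome 15 with 76, and the 2852 kb between Nmbr and Cited2 on chromosome 10 with 74. In each of these 3 deserts some regions were gained and others lost on stimulation: 4 and 6 beside Zeb2, 5 and 7 beside Myc, and 8 and 6 beside Cited2. For comparison, 448 of all 9589 gene-desert regions were gained and 896 lost. Of all 80598 regions, 2868 were gained and 5901 lost. Whether single deserts depart from these totals was not tested.

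The largest cluster held 63 regions in 451 kb between the endosome tether gene Eea1 and Btg1, an antiproliferative gene (chr10:96115150-96565653). Of these, 19 were found in all 24 libraries, 5 were gained and 6 lost. Second was a cluster of 49 between the adhesion receptor genes Adgrl2 and Adgrl4 (chr3:149169986-149719900), with 18 in all libraries, 5 gained and 4 lost. The next held 47 between the polo-like kinase gene Plk2 and Actbl2 (chr13:110471586-110979024), with 14 in all libraries, 1 gained and 7 lost. A cluster of 43 lay beside Id2, whose product blocks DNA binding by E proteins (chr12:25150670-25439496), with 3 gained and 5 lost. One of 42 beside the apoptosis gene Bcl2l11, which encodes BIM (chr2:128221181-128487197), had only 2 in all libraries, with 4 gained and 4 lost. These counts too stand beside 448 gained and 896 lost of all 9589 gene-desert regions, and departures of single clusters were not tested. Very short spacing occurred in other places, chosen after their values were seen: 6 regions in 5.07 kb (chr2:98662323-98667389) and 18 in 37.5 kb at the start of chromosome 9 (chr9:2999990-3037475). In neither was any region gained or lost. No list of artefact-prone regions was applied here, and how reads that align to several places were treated is not given. Both bear on such dense places, and whether these are open chromatin was not tested.

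Regions in clusters of at least 5 were more often shared and more often called than single ones. The share found in all 24 libraries was 12% for single regions, 17.8% in clusters of 2 to 4, 22.2% in clusters of 5 to 9 and 25.8% in clusters of 10 or more. Of tested regions, 8.44%, 8.36%, 11.9% and 12.8% were gained and 12.2%, 21.3%, 23.1% and 24.4% lost, in the same order. Neighbouring regions did not always respond alike: of 408 pairs of next neighbours in a cluster that were both called, 64 were both gained, 191 both lost and 153 opposite. The share of same-direction pairs was 62.5%, and 65.3% for such pairs among the other regions. These shares have no test, since neighbouring regions are not independent.

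**Figure D2:**
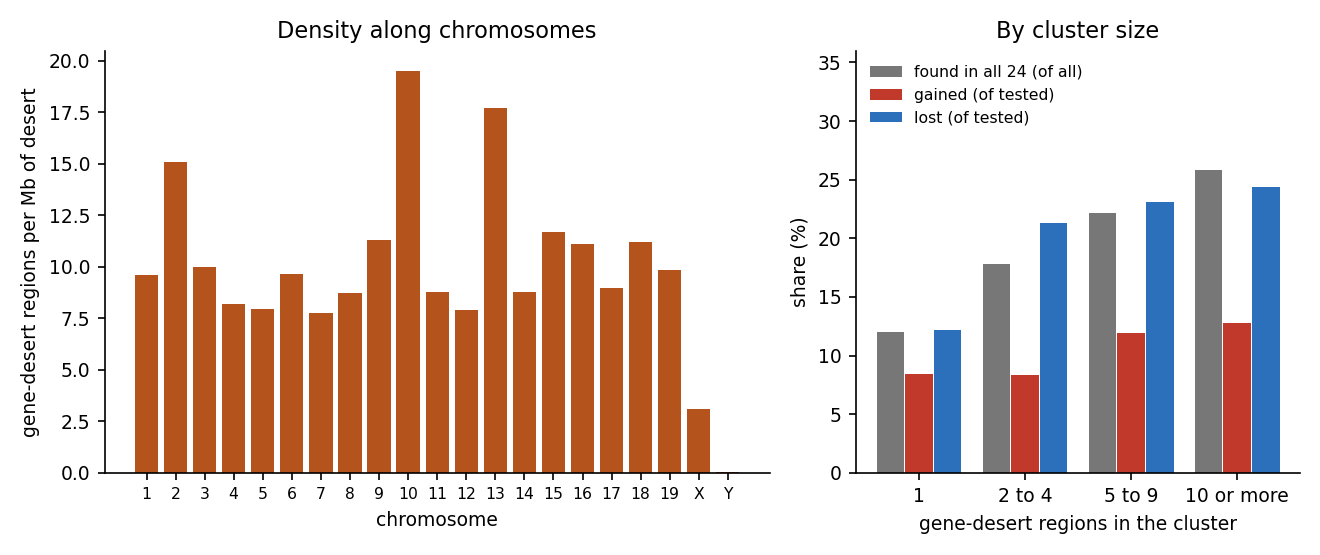
Left, gene-desert regions per Mb of desert sequence for each chromosome; right, by number of gene-desert regions in a cluster, the share found in all 24 libraries and the shares of tested regions gained and lost (%). Chromosomes 10, 13 and 2 stand above the rest, and all 3 shares are higher in clusters of 10 or more than in single regions.

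With LPS and IFNγ, 448 gene-desert regions were gained and 896 lost, with phenotypes pooled (12 against 12 libraries). A region counts as gained or lost where a two-sided Fisher's exact test on the number of libraries with a peak passed an adjusted p of 0.05 (Benjamini-Hochberg, over the whole table). In all, 4088 gene-desert regions could be tested, and the rest had too few or too many detections for any split to give an unadjusted p under 0.05. Gained regions made up 11% and lost regions 21.9% of those tested, where the background over all 31219 tested regions was 9.19% gained and 18.9% lost. Losses were 66.7% of the calls in gene deserts and 67.3% overall. With all lists cut to the length of the shortest, 472 were gained and 553 lost, so the losses made up 54% of the calls. Peak numbers moved with the comparison, from a mean of 55756 ± 4075 (SD, n = 12) in unstimulated to 50485 ± 5467 (SD, n = 12) in stimulated libraries, and their part in the losses beyond that setting was not tested.

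Both shares were higher in every desert bin of distance than nearer to genes. Of tested regions, 10.2% were gained and 21.3% lost at 50 to 100 kb, 12.1% and 22.1% at 100 to 200 kb, 10.6% and 22.7% at 200 to 500 kb, and 11.9% and 23.4% beyond 500 kb. Regions up to 50 kb outside a gene gave 8.74% and 16.7%, and those inside gene bodies 9.02% and 19.4%. The share found in all libraries went the other way, from 30.5% inside genes to 22.6% at 50 to 100 kb and 17.8% among the 499 regions beyond 500 kb. The median distance of gene-desert regions was 112 kb (quartiles 72.8 and 196 kb) and the largest 1977 kb.

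**Figure D3:**
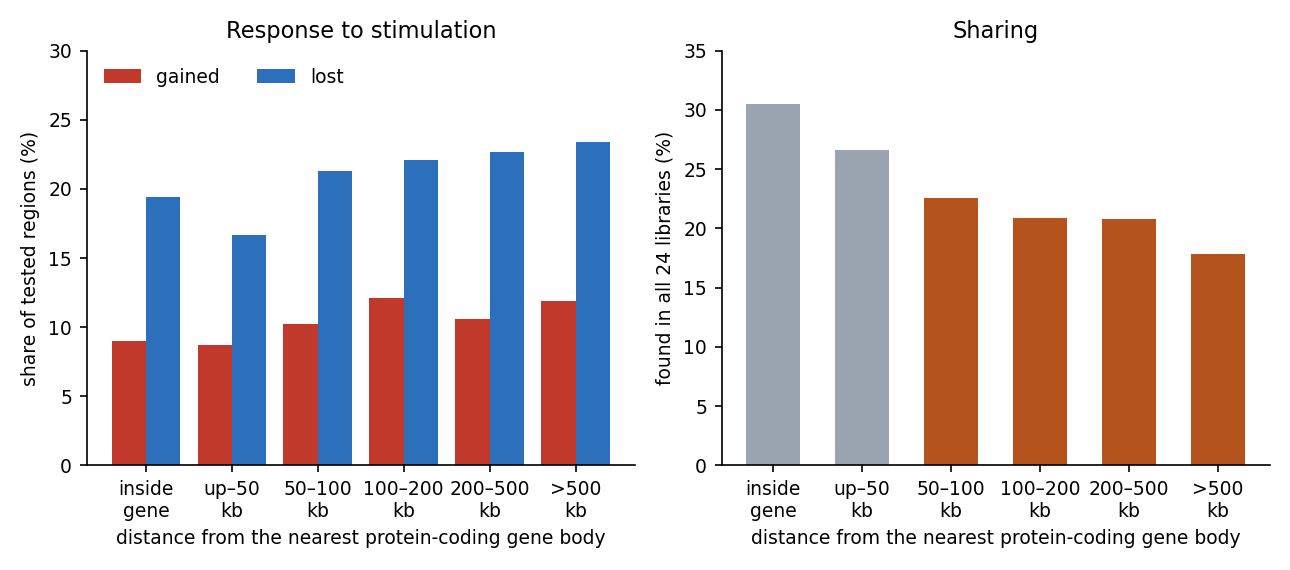
Left, shares of tested regions gained and lost on stimulation (%) by distance from the nearest protein-coding gene body; right, share found in all 24 libraries (%), with gene-desert bins in orange. The shares lost lie between 21.3% and 23.4% in the 4 desert bins, above the 19.4% inside genes, while the share found in all libraries falls to 17.8%.

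The complete split of 12 stimulated against 0 unstimulated libraries was shown by 37 gene-desert regions (adjusted exact p = 6.17e-05). These were 0.386% of all gene-desert regions, against 0.276% of the other regions. The 10 leading gained regions are among the 37. The first lay 51.2 kb from Ripk2, the kinase that relays signals of the NOD receptors (chr4:16071161-16071815). Its deposited fold was 9.27 at the lowest, 11.4 at the median and 16.5 at the highest of the stimulated libraries, the highest median of the 10. The second lay 148 kb from Spry2, an inhibitor of receptor tyrosine kinase signalling (chr14:105744054-105744649), with folds of 4.86, 8.71 and 10.3. Another lay 80.5 kb from Gpd2, the mitochondrial glycerol-3-phosphate dehydrogenase gene (chr2:57450847-57451633), with folds of 7.28, 8.92 and 11.9. The complete split of these regions follows from their ranking by adjusted p.

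The other leading gained regions had the same complete split, by the same ranking. One lay 15.5 kb from Mir146 and is described with that gene below, and one 110 kb from Mir155. Between Inhba, which encodes an activin subunit, and Sugct, a region 359 kb from the nearer gene (chr13:16498066-16498618) had a median fold of 8.46. Others lay 286 kb from the protein kinase C substrate gene Marcks (chr10:37425222-37425614, median fold 8.41) and between the splicing regulator gene Mbnl1 and the ADP receptor gene P2ry1 (chr3:60811888-60812433, 7.55). The last 2 lay 78 kb from Kctd12 (chr14:102898491-102898765, 7.58) and 652 kb from Tbl1xr1, a corepressor complex gene (chr3:21423784-21424429, 7.43).

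In the opposite direction, 26 gene-desert regions had peaks in every unstimulated and no stimulated library (adjusted exact p = 6.17e-05), among them the 10 leading losses. The 26 were 0.271% of all gene-desert regions, against 0.162% of the other regions. The first lay 296 kb from the actin-binding protein gene Enc1 (chr13:97548531-97548998), with folds of 5.38, 7.37 and 9.63 at the lowest, median and highest unstimulated library. The second, between Ccdc71l and Nampt, which encodes an enzyme of NAD salvage (chr12:32602097-32602574), had 6.22, 9.33 and 12.2. Dusp6, the phosphatase that switches off ERK, had one at 65.3 kb (chr10:99332663-99333003) with 4.34, 6.58 and 9.32. Here too the complete split follows from the ranking.

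Further leading lost regions lay 152 kb from the developmental coactivator gene Eya1 (chr1:14016724-14017322, median fold 7.67) and 123 kb from Acvr2a at the far end of the Zeb2 desert (chr2:48690657-48690996, 5.15). On chromosome 10 they lay between Stxbp5, a regulator of exocytosis, and Adgb (chr10:10132557-10132928, 6.6), and 53 kb from the trafficking GTPase gene Rab32 (chr10:10610991-10611364, 6.07). The same chromosome had 2 more, 68.7 kb from the lipid transfer gene Osbpl8 (chr10:111095836-111096235, 6.56) and 81.4 kb from Zfp365 (chr10:67804524-67804959, 6.33). The last lay 397 kb from Gm36718 and 512 kb from Setbp1 on chromosome 18, with a median fold of 8.65.

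Around Mir146, which encodes miR-146a, all 8 gene-desert regions lay on one side of the gene, since the other side is within 50 kb of the securin gene Pttg1. At 15.5 kb stood the gained region (chr11:43358487-43359372), found in 6 of 6 stimulated control, 6 of 6 stimulated diabetic and 0 of 12 unstimulated libraries, with folds of 6.08 to 9.03. Just beyond it, 3 regions at 20.5, 21.1 and 22.4 kb were lost. They were found in 2, 5 and 0 stimulated libraries and in 12, 12 and 11 unstimulated libraries (adjusted exact p = 0.00128, 0.0235 and 0.000303). The call at 21.1 kb ended when all regions entered the adjustment (0.0606). Closest to the gene, at 5.59 kb, a region of 959 bp was found in all 24 libraries with folds of 5.75 to 12.7. One gained region thus stood between a group of lost regions and a constitutively found one.

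Mir155, which encodes miR-155, lies within 50 kb of the coding gene Mrpl39, and its gene-desert regions began 67.8 kb away. Of 11 between 67.8 and 130 kb, 6 were found in all 24 libraries, and 2 were gained: one at 110 kb (chr16:84603656-84604167) in 12 stimulated and 0 unstimulated libraries with folds of 4.07 to 7.82, and one at 123 kb (chr16:84590734-84591219) in 10 and 1 (adjusted exact p = 0.00622). The strongest of the shared ones, at 86.9 kb (chr16:84626974-84627595), had folds of 13.3 to 19.6. Nearer Mir155, among regions within 50 kb of Mrpl39, those at 33.3, 3.96 and 4.54 kb were gained (12, 9 and 7 stimulated and 0 unstimulated libraries). The region over the gene itself was lost (0 stimulated and 9 unstimulated libraries), and one at 0.902 kb was found in all 24.

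**Figure D4:**
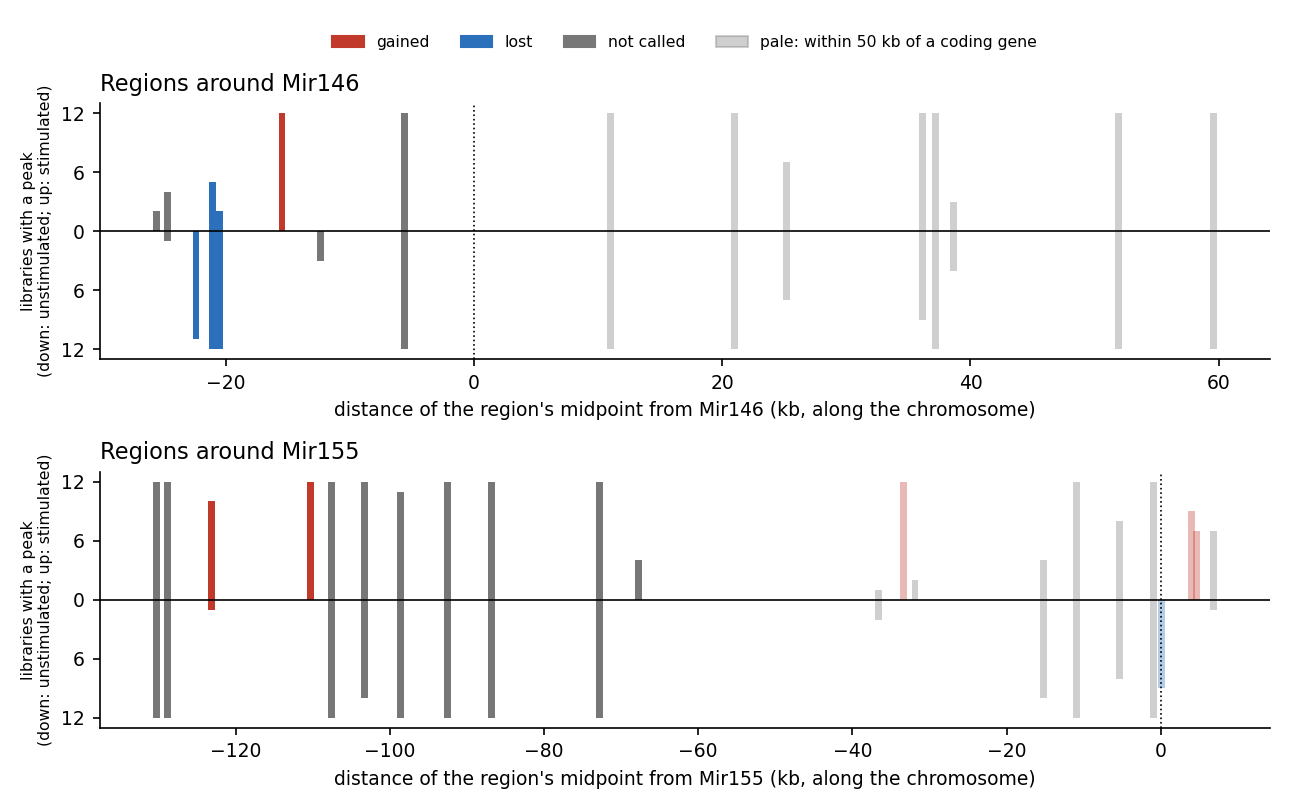
Regions around Mir146 and Mir155 by distance of their midpoint from the gene (kb), with the number of stimulated libraries with a peak drawn upward and of unstimulated libraries downward; red regions were gained, blue lost, grey not called, and pale ones lie within 50 kb of a coding gene. The gained region 15.5 kb from Mir146 stands between lost regions and a region found in all 24 libraries.

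Further microRNA genes had responding gene-desert regions within 50 kb. Of the 263 gene-desert regions within 50 kb of any microRNA gene, 104 could be tested, 12 were gained and 15 lost, which is 11.5% and 14.4% of those tested, beside 9.19% and 18.9% of all tested regions. Mir125b-1 had a gained region at 49.8 kb, beside its host transcript Mir100hg (chr9:41631459-41632207), found in 12 stimulated and 0 unstimulated libraries (adjusted exact p = 6.17e-05). Mir125b-2, whose mature 5p product is the same miR-125b-5p shown above, had one at 25.6 kb (chr16:77671794-77672178) found in 12 and 4 (adjusted exact p = 0.0101). Mir29b-1 had a region at 45 kb inside the p53-induced non-coding gene Lncpint that was gained (12 and 1, adjusted exact p = 0.000303). A second, at 15.5 kb, was lost (0 and 10, adjusted exact p = 0.00128), a call that ended with lists of equal length (0.0938). Mirlet7c-2 had a gained region at 48.8 kb between Wnt7b and Ppara, found in 12 and 3 (adjusted exact p = 0.00388), which ended when peaks had to cover 50% of the region (0.0507).

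At the promoters of desert long non-coding RNAs, 74 of the 216 overlapping regions could be tested, and 3 were gained and 21 lost (4.05% and 28.4%, beside 9.19% and 18.9% of all tested regions). Of the 216, 90 (41.7%) were found in all 24 libraries, with a median width of 502 bp. The region over the 1700067G17Rik window, between Arl4c and Sh3bp4, was found in 11 stimulated and 2 unstimulated libraries (adjusted exact p = 0.00622). That over Gm52636, 303 kb from the cathepsin gene Ctso, was found in 11 and 1 (0.00176). The other gained one, at Gm29010 in the Bcl2l11 cluster, was found in 10 and 0 (0.00128). Among the lost ones, the region over 1110002O04Rik was found in 0 stimulated and 10 unstimulated libraries, and that over Gm31718, between Tomm20 and the IRF2 corepressor gene Irf2bp2, in 2 and 12 (both 0.00128). More widely, 23.5% of gene-desert regions lay inside a long non-coding RNA gene, of which 12.4% of those tested were gained and 22.9% lost. A further 22.1% of gene-desert regions lay more than 50 kb from every gene of the table, non-coding ones included, with 10.6% gained and 22% lost of those tested.

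The coding gene nearest a gene-desert region need not be the one it acts on, so the lists that follow describe position only. Of 43 genes of macrophage identity and function, 21 were nearest to 267 gene-desert regions, of which 114 were tested, 16 gained and 19 lost (14% and 16.7% of tested). Id2 had 48 such regions (3 gained, 5 lost), Zeb2 46 (4 and 2) and the monocyte factor gene Klf4 43 (0 and 6). Runx1, a regulator of blood cell identity, had 23 (3 and 0), and the LPS receptor gene Tlr4 had 11 (2 and 0). Beside Tlr4, at 533 kb, a region was found in 12 stimulated and 1 unstimulated libraries (chr4:67379233-67379617, adjusted exact p = 0.000303). Beside Csf1, the gene of the macrophage growth factor, one at 55.7 kb was found in 1 and 12 (chr3:107816025-107816407, 0.000303). In the Zeb2 desert, one 1114 kb from Zeb2 was found in 12 and 0 (chr2:46230730-46231485, 6.17e-05).

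Of 103 inflammatory and interferon genes, 26 were nearest to 262 gene-desert regions, of which 117 were tested, 21 gained and 29 lost (17.9% and 24.8% of tested). Myc had 55 of them (5 gained, 6 lost). Prdm1, the gene of the repressor BLIMP-1, had 21 (1 and 5), the stress transcription factor gene Jun 18 (0 and 4), and Tnfaip3, the gene of the NF-κB inhibitor A20, 14 (3 and 1). The Tnfaip3 region at 53.1 kb was found in 11 stimulated and 0 unstimulated libraries (chr10:19068312-19068803, adjusted exact p = 0.000303), and so was one 56.2 kb from the chemokine gene Cxcl5 (chr5:90702891-90703324, 0.000303). Ptgs2 had a second region at 95 kb (chr1:150202954-150203481) found in 12 and 0, in contrast to the region at 56.8 kb that was found everywhere. Myc had a gained region at 736 kb (chr15:62726537-62726999, 12 and 0) and a lost one at 140 kb inside the non-coding gene Pvt1 (chr15:62130362-62130695, 0 and 12), all 3 with an adjusted exact p of 6.17e-05.

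The other lists were made from the first letters of gene symbols, and may include genes that act in macrophages. Developmental transcription factor genes were nearest to 225 gene-desert regions (87 tested, 6 gained, 20 lost), with one lost 601 kb from Sall3 on chromosome 18 (1 stimulated and 12 unstimulated libraries) and one gained 126 kb from Pou1f1 (10 and 1). Neuronal adhesion and synapse genes were nearest to 197 (70 tested, 4 gained, 21 lost). Among these, a region 697 kb from the potassium channel gene Kcnj3 was found in 1 and 12 libraries (chr2:56294577-56295295, adjusted exact p = 0.000303) and lost its call when peaks had to cover 50% of the region. Chemosensory receptor genes were nearest to 18 (6 tested, 1 gained, 1 lost). The gained shares of the 5 lists were 14%, 17.9%, 6.9%, 5.71% and 16.7% of tested regions, where all regions gave 9.19%. The lost shares were, in the same order, 16.7%, 24.8%, 23%, 30% and 16.7%, where all regions gave 18.9%. The differences between lists were not tested.

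The response of gene deserts was next followed within each phenotype (6 against 6 libraries). In control macrophages 163 of 1567 tested gene-desert regions were gained and 524 lost, against a background of 8.41% gained and 27.5% lost over all tested regions. In diabetic macrophages 101 of 1600 were gained and 65 lost, against 5.47% and 3.44%. The adjustment set unlike limits in the phenotypes. In control macrophages all 687 gene-desert regions with an unadjusted Fisher's exact p under 0.05 were called, in diabetic macrophages 166 of 494. Counts of calls, and of regions called in both, therefore do not compare the phenotypes at one threshold. Of the 163 regions gained in control, 62 were also called in diabetic macrophages, which are 62 of the 101 gained there, and all 163 had more stimulated than unstimulated detections in diabetic macrophages. Of the 524 lost in control, 43 were called lost in diabetic macrophages, where 65 were, and 468 moved the same way. These shares lay near those of the other regions: 38% of the regions gained in control were also called in diabetic macrophages in both sets, and of those lost in control, 8.21% in gene deserts and 7.59% elsewhere. Of those gained in control, 100% in gene deserts and 98.4% elsewhere moved the same way, and of those lost 89.3% and 90.6%. No gene-desert region was called in opposite directions. The call counts depended on list length: with lists of equal length, control macrophages had 224 gained and 266 lost, and diabetic macrophages 260 and 175. Without replicate 6 of stimulated control there were 193 and 642 in control, and without replicate 5 of stimulated diabetic 162 and 70 in diabetic. Leaving out 1 of replicates 1 to 4 of stimulated control, or 1 of replicates 1, 3, 4, 5 and 6 of unstimulated control, gave only 68 to 80 gained and 187 to 211 lost in control. With all regions in the adjustment there were 0 calls in either phenotype.

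Per library, control macrophages found fewer gene-desert regions after stimulation and diabetic macrophages did not measurably. Unstimulated control libraries found 5346 at the lowest, 5785 at the median and 6355 at the highest, and stimulated control libraries 3976, 4586 and 4876, so the groups did not overlap (exact permutation p = 0.00216, the smallest possible, adjusted p = 0.00866 over 4 comparisons). Diabetic libraries found 4825, 5836 and 6306 unstimulated and 4367, 5594 and 5883 stimulated, which overlapped (exact permutation p = 0.494), with a mean difference of −246, or −38.4 without replicate 5 of stimulated diabetic (exact permutation p = 0.905). The difference between the responses was 1036 regions (exact permutation p = 0.023). It was 1078 without replicate 6 of stimulated control (exact permutation p = 0.0259) and 1245 without replicate 5 of stimulated diabetic (exact permutation p = 0.00685). With lists of equal length it was 256 (exact permutation p = 0.0273), and with a −log10 q of at least 5 it was 853 and missed the threshold (exact permutation p = 0.0526). Total peak number moved with it, from 55990 ± 3486 to 47268 ± 4535 in control and from 55522 ± 4925 to 53703 ± 4511 in diabetic macrophages (SD, n = 6 each).

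As a share of all peaks, gene-desert peaks fell slightly on stimulation in control macrophages, beyond the loss of peaks in general. The share was 10.7 ± 0.0884% unstimulated and 10 ± 0.519% stimulated (SD, n = 6 each), a difference of −0.723 percentage points (exact permutation p = 0.00216, adjusted p = 0.00866). All stimulated control libraries lay below all unstimulated ones, from 9.02% to 10.5% against 10.7% to 10.9%. Without replicate 6 of stimulated control the difference was −0.528 points (exact permutation p = 0.00433). In diabetic macrophages the shares were 10.6 ± 0.265% and 10.5 ± 0.333% (SD, n = 6 each), a difference of −0.0912 points (exact permutation p = 0.608), which turned to 0.0409 points without replicate 5 of stimulated diabetic (exact permutation p = 0.797). The difference between the responses was 0.631 points (exact permutation p = 0.0201), 0.43 points without replicate 6 of stimulated control (exact permutation p = 0.0424), and 0.565 points with a −log10 q of at least 5, where it missed the threshold (exact permutation p = 0.0637). Pooled over phenotypes the difference was −0.407 points (permutation p = 0.00638), and −0.277 points with lists of equal length, where it missed the threshold (permutation p = 0.064).

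**Figure D5:**
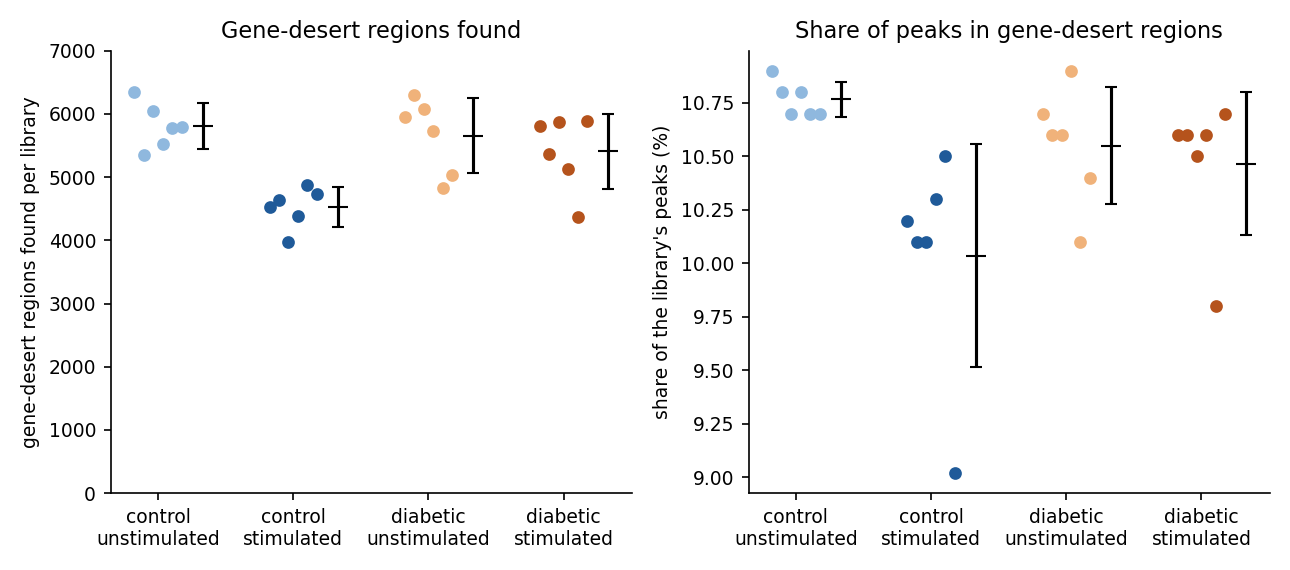
Left, gene-desert regions found in each library; right, share of each library's peaks that lie in gene-desert regions (%, axis not from 0); points are libraries, bars mean and SD of 6. Stimulated control libraries lie between 3976 and 4876 regions, below all unstimulated control libraries, and their replicate 6 has the lowest share at 9.02%.

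Region by region, no gene-desert region passed a test between diabetic and control macrophages. At rest, 0 of 1110 tested gene-desert regions passed Fisher's exact test with adjustment (background 0% of 8788), and 21 had an unadjusted p under 0.05, of 137 overall. After stimulation it was 0 of 1185 (background 0% of 9681), with 50 of 292. With 6 against 6 libraries the smallest p is 0.00216, so that at least 381 completely separated regions at rest, or 420 after stimulation, would have been needed for any to pass. Zelen's exact test of a different response found 0 of 1214 (background 0% of 10469), with 42 of 229 under an unadjusted p of 0.05. At rest, a region 63.1 kb from the ubiquitin ligase gene Rnf19a (chr15:36346124-36346426) was found in 6 control and 0 diabetic libraries (unadjusted exact p = 0.00216). After stimulation 4 regions divided 6 diabetic from 0 control libraries, 170 kb from the transporter gene Slco3a1, 109 kb from Twist2, 73.6 kb from Rreb1 and 1417 kb from Zeb2. Those near Twist2 and Rreb1 were found in 6 unstimulated control and 5 unstimulated diabetic libraries each, so that stimulated control was the only group without a called peak there. That group also had the fewest peaks, with a mean of 47268 against 53703 to 55990 in the other groups. The median −log10 q was 5.23 near Twist2 and 4.76 near Rreb1, and the part of list length was not tested.

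At the border of the rule, the nearest gene-desert regions lay 50006 bp from Akap7, 50010 bp from Ror1 and 50014 bp from Elovl4 and were found in 24, 4 and 9 libraries. The nearest regions left out lay 50000 bp from Tmem65, 49999 bp from Prdx6 and 49960 bp from Dhrs2 and were found in 2, 8 and 15.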

How the data were processed

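ATAC-seq, which marks accessible DNA by transposition, was read from 24 deposited peak lists, each called by the authors on 1 library (50000 cells, 50 bp single reads, per the labels' protocols). Bowtie2 2.2.6, MACS2 2.1.1 and mm10 are named in the submitters' processing notes. The handling of the transposase offset and of multiply mapped reads is not given in the sources used here. Per the file headers and format, each peak carries the authors' fold enrichment at the summit, −log10 p and −log10 q (at least 1.302), and a display score that was not used. These values were used only to rank or describe peaks.

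Peaks were joined into regions here, and positions were compared with RefSeq genes of GRCm38.p6 (21883 protein-coding genes), whose sequence is that of mm10. Detection per library was tested with Fisher's exact test, Zelen's exact test for the interaction and Benjamini-Hochberg adjustment over all regions whose detection total can reach p = 0.05. Values per library were tested by permutation (100000 resamples, or all 924 orders for 6 against 6). Python 3.11.15, numpy 2.4.6, scipy 1.17.1, pandas 2.3.3 and matplotlib 3.10.9 were used, and the tests were tested on simulated data. Named regions are the 10 gained and 10 lost with the smallest adjusted p (ties broken by the higher median −log10 q), the 10 strongest found in all libraries, the 5 widest, the 5 largest clusters, the 5 with the smallest phenotype p per state, the 3 on each side of the 50 kb limit and up to 6 called per gene list. MicroRNA loci and promoter windows were added later. The gene-desert rule and the lists were chosen with earlier results of these data known. The planned motif search in the regions was not run, as no genome was used. P-values measure the spread between libraries, 6 in each group or 12 in each state. Tests between states, and sign-flip tests over all 24 libraries, take no account of shared mice. Replicate numbers do not pair samples by any label, and the deviations of same-numbered samples correlated at −0.00604 to 0.0203.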

Additional observations from a re-analysis of the deposited data

Results flagged for a closer look

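In replicate 6 of stimulated control macrophages, 9.02% of peaks lay in gene-desert regions, and in the other 5 libraries of the group 10.1% to 10.5%. In the same library the share of gene-desert regions found was −15.0 percentage points from that of other regions, against −7.16 to −4.09 in the other 5. The median gene-desert peak of that library stood at percentile 43.2 of its own list by rank, against 45.8 to 47.2. Replicate 5 of stimulated diabetic macrophages had 9.8% of its peaks in gene-desert regions, against 10.5% to 10.7% in its group. The median fold of gene-desert peaks was 6.24 in replicate 2 of stimulated control macrophages, against 5.96 to 6.05, and 7.16 in replicate 6 of unstimulated control macrophages, against 6.5 to 6.72. These libraries were singled out because each lay farther from its group than Dixon's 95% limit, and chance alone singles out about 1 in 20 groups.

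The response to stimulation differed between phenotypes in 2 per-library measures. The change in the share of peaks in gene-desert regions was 0.631 percentage points higher in diabetic than in control macrophages (exact permutation p = 0.0201), and the change in the number of gene-desert regions found was 1036 higher (exact permutation p = 0.023). Peak numbers moved the same way, with a difference between the responses of 6903 peaks (exact permutation p = 0.0792). The 2 measures both rest on gene-desert peaks and were singled out for an unadjusted p under 0.05. The same test missed the threshold for the median width of gene-desert peaks (exact permutation p = 0.506). It also missed it for the gaps to other regions in width and in share found (exact permutation p = 0.0501 and 0.0589).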

How the results depend on the processing

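The 50 kb limit, the peak threshold and the adjustment moved counts of gene-desert regions, and no result changed direction past the threshold under any alternative run. With peaks of −log10 q of at least 5 there were 294 gained, 59 gained in diabetic macrophages and 18.8% found in all libraries, and the differences between the responses, 0.565 points and 853 regions, missed the threshold (exact permutation p = 0.0637 and 0.0526). With lists cut to 41385 peaks there were 553 lost (54% of calls), 266 lost in control, 260 gained and 175 lost in diabetic macrophages, a pooled share difference of −0.277 points, and a width gap difference of −4.21 bp pooled and −6 bp in control. With peaks required to cover 50% of a region, 7.48% were found in all libraries. With all regions in the adjustment there were 280 gained, 456 lost, and 0 in each direction in either phenotype, where more tests enter. With members over 25 kb from genes 683 were gained, and over 100 kb 263 were gained, 508 lost and 20.5% found in all libraries. Over 50 kb from every gene, non-coding ones included, 2115 regions remained, with 97 gained, 201 lost, 19.1% found in all libraries and 840 clusters. The cause of the other shifts was not tested.

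Leaving out 1 library at a time gave 367 to 537 gained, 721 to 1050 lost, 68 to 193 gained and 187 to 681 lost in control, 101 to 162 gained and 65 to 95 lost in diabetic macrophages, and 0.43 to 0.767 points and 869 to 1245 regions for the differences between the responses. Taking the replicate number as a pairing (replicate block, exact McNemar test) gave 351 gained and 683 lost, with 64 and 173 in control and 101 and 65 in diabetic macrophages, and a pooled share difference of −0.407 points (exact permutation p = 0.00781). Of 12 samples, 4 correlated best with their own number. Of 75 named called regions, 13 to 19 lost their call under one or another peak or adjustment setting and 4 under the block, and none reversed. Depth in reads is unknown, so a region that was not found may lie just under the calling limit.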
